A study of Mus musculus with 30 samples.

Results

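The difference between 2 mouse cell lines in their response to 5 h of cycloheximide is described here, gene by gene, as the log2 change in CGR8 minus the log2 change in NIH/3T3. It rests on 12 of the 30 libraries of the series, the 0 h and 5 h libraries with replicate letters A, B and C of each line. NIH/3T3 is a mouse fibroblast line, and it was kept in DMEM with 10% serum. CGR8 is a mouse embryonic stem cell line (its culture protocol spells it GCR8), and it was kept in the serum-free medium N2B27 with 2i, a pair of kinase inhibitors, and the cytokine LIF. The groups are NIH/3T3 at 0 h, NIH/3T3 at 5 h, CGR8 at 0 h and CGR8 at 5 h, each with 3 libraries. All 4 groups share the genotype, a ROSA26 SLT knock-in, so no group is the unmodified line. The cycloheximide dose was 0.1 µg/mL, and the 0 h libraries carry the same treatment label with a time of 0 h. The series holds no untreated library at 5 h, so the drug cannot be told apart from handling or time in culture. The lines differ in medium as well as in cell type, so line and medium cannot be told apart. The labels do not say whether the replicates were separate cultures. The p-values measure a spread between replicate libraries that is shared over all 30 libraries of the series, and this spread may be technical.

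Cycloheximide stops ribosomes while they elongate a protein. Proteins with short lives are then lost first, transcription factors and repressors among them, and mRNAs can rise or fall through changed transcription or changed decay. Some short-lived mRNAs, such as those of immediate-early genes, are known to last longer when translation stops. Amino acid supply and the load of newly made protein both depend on translation, and cells sense them through gene programmes treated below.

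The libraries held 20.2 to 30.5 M (mega) counts. Levels are in CPM, counts relative to a library total that was scaled by a TMM factor, a correction for composition. The lines carried the markers of their labels: the summed level of 8 naive pluripotency markers was 4910 to 5120 CPM in CGR8 at 0 h and 226 to 301 CPM over the NIH/3T3 libraries, and that of 8 fibroblast markers was 5920 to 8420 CPM in NIH/3T3 and 393 to 977 CPM in CGR8, both by library totals alone. The NIH/3T3 sum of the stem cell markers came from Sox2 and Klf4, with the other 6 at or below 0.383 CPM, and the fibroblast markers Thy1 and Postn stayed below 1 CPM in NIH/3T3, with Thy1 at 3.69 to 4.19 CPM in CGR8 at 0 h. Replicates differed in how far apart they lay. A chi-square statistic of counts, divided by its degrees of freedom, reached 36.3 for a replicate pair in CGR8 at 0 h, where library B stood apart, and 73.7 in CGR8 at 5 h, between libraries A and C, against 3.70 to 15.4 in NIH/3T3; CGR8 0 h libraries A and C were the closest pair, at 3.55.

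The CGR8 5 h libraries A and B also differed from library C in how the change depended on transcript length. Between the 20% of genes with the shortest transcripts (up to 1809 bases) and the 20% with the longest (from 5224 bases), the median log2 change from 0 h differed by 1.44 in library A, 0.96 in library B and 0.56 in library C. In the NIH/3T3 5 h libraries this gap was 0.48, 0.46 and 0.33. Genes encoded in mitochondria held 0.262% of counts in both CGR8 libraries A and B at 5 h and 0.438% in library C. Counts of list members called are also given without these libraries for several lists below that they moved. The median difference was 0.36 in the shortest 20% of genes expressed in both lines and -0.21 in the longest. With GC and length trends removed from every library these medians were 0.11 and 0.09. The part of the length trend in the differences was not tested.

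**Figure D1:**
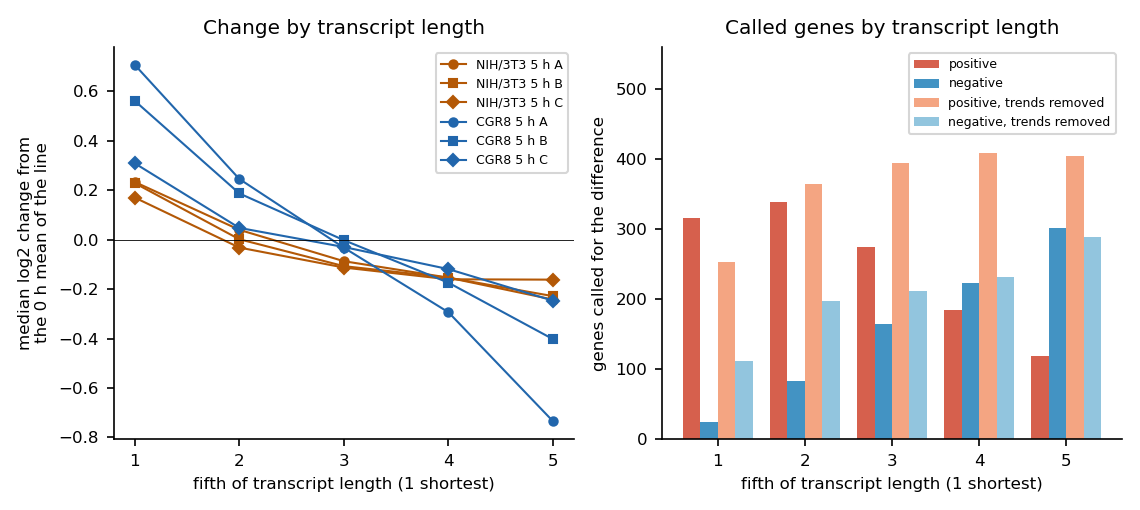
Left, the median log2 change from the 0 h mean of the line (vertical axis) in 5 equal groups of genes ordered by transcript length (horizontal axis), with a line for each 5 h library. CGR8 libraries A and B run most steeply, from 0.71 and 0.56 in the shortest group to -0.73 and -0.40 in the longest. Right, the number of genes expressed in both lines and called for the difference in each group. Counts are given before and after GC and length trends were removed from every library. The shortest group went from 316 positive and 25 negative calls to 253 and 112. The longest group went from 119 positive and 301 negative calls to 404 and 288.

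Over all 17549 genes tested, 2329 (13.3%) differed between the lines in their 5 h response by edgeR's quasi-likelihood test at a Benjamini-Hochberg (BH) adjusted p under 0.05, 1435 (8.18%) with a more positive and 894 (5.09%) with a more negative change in CGR8. Of the genes expressed in both lines, meaning a mean of at least 1 CPM at 0 h or 5 h in each, 2045 of 10609 (19.3%) were called. Their change was more positive in CGR8 for 1245 genes (11.7%) and more negative for 800 (7.54%), and 534 differed at least 2-fold. Within the lines, 31.8% of these genes rose and 30.8% fell in CGR8, and 21.2% rose and 30.5% fell in NIH/3T3. A response was called in both lines for 3953 genes, 3735 of them in the same direction and 218 in opposite directions. Across the 10609 genes, the changes in the lines had a Pearson correlation of 0.645 and a Spearman correlation of 0.684, a description across genes, which are not replicates and share libraries.

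The 2045 called genes sorted into a few patterns. The most frequent was a rise in CGR8 with no call in NIH/3T3, for 519 genes (25.4%), followed by a fall in CGR8 with no call in NIH/3T3, for 382 (18.7%). A fall in NIH/3T3 without a call in CGR8 was seen for 362 genes (17.7%), and a rise in NIH/3T3 without a call in CGR8 for 142 (6.94%). The lines moved in opposite directions for 218 of them, with 121 up in CGR8 and down in NIH/3T3 and 97 the other way round; of all genes expressed in both lines, 447 (4.21%) had 0 h and 5 h groups apart in opposite directions. In both lines 254 fell and 145 rose, by unequal amounts. The direction split depends on the scaling: 61.6% of calls over all genes were positive with TMM factors, 45.9% with RLE factors and 31.5% with library totals, and 28.5% without CGR8 5 h library A. Relative to TMM, library totals moved the median difference of all genes by -0.19, and a difference close to 0 therefore has no settled sign. The 69 genes named by a fixed rule kept the sign of their difference under each alternative that tested them (61 of the 69 with a mean of at least 5 CPM), and 46 of them kept their call. The rule picked large called differences in these same libraries, so their kept signs are no test of the scaling.

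**Figure D2:**
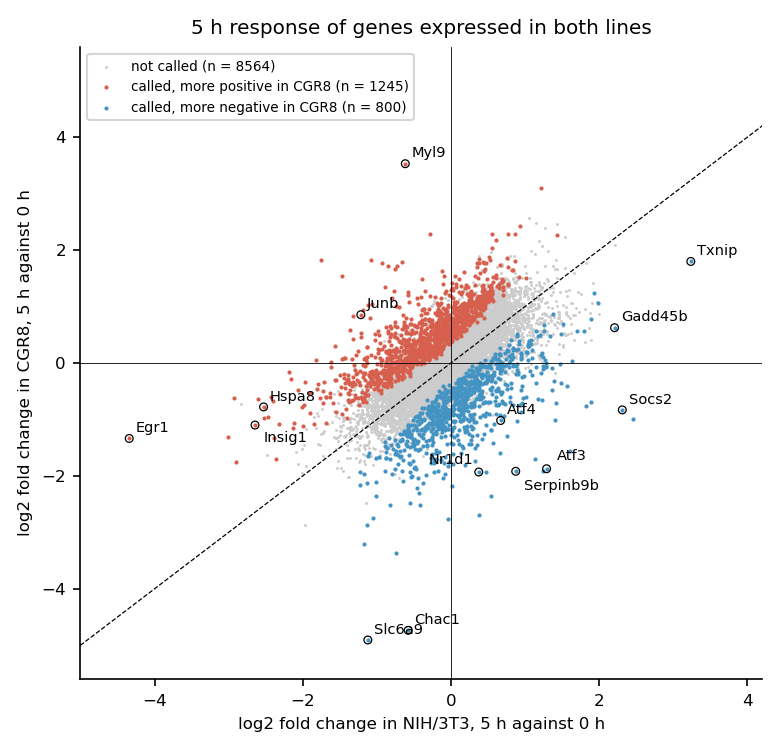
Log2 fold change at 5 h against 0 h in NIH/3T3 (horizontal) and in CGR8 (vertical) for the 10609 genes expressed in both lines, 1 point per gene. The dashed line marks equal change; 1245 called genes lie above it in red and 800 below it in blue, and circles mark genes named in the text.

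The circadian clock is the set of transcription factors and repressors that keep daily time. Of 14 clock genes expressed in both lines, 11 were called, each with a more negative change in CGR8, where 7.54% of all genes expressed in both lines were called negative. The median difference of the 14 was -0.96, against 0.10 over all genes expressed in both lines. In NIH/3T3 8 of the 14 rose and 2 fell, and in CGR8 1 rose and 7 fell. Of all genes expressed in both lines 21.2% rose and 30.5% fell in NIH/3T3, and 31.8% rose and 30.8% fell in CGR8. Nr1d1 (ENSMUSG00000020889.12), the nuclear receptor REV-ERBα that represses the clock activator Arntl, stood at 85.2, 70.5 and 85.9 CPM in NIH/3T3 libraries A, B and C at 0 h and at 106, 93.6 and 114 CPM at 5 h. In CGR8 it went from 16.9, 18.4 and 13.8 to 3.41, 4.21 and 5.19 CPM. The 5 h libraries lay above all 0 h libraries in NIH/3T3 and below all of them in CGR8, and the difference was -2.31 (SE 0.21, edgeR BH-adjusted p 2.10e-08).

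Its paralogue Nr1d2 rose in NIH/3T3 and fell in CGR8 too, from 61.1, 71.2 and 53.5 to 101, 101 and 102 CPM in NIH/3T3 and from 32.7, 22.5 and 32.6 to 14.1, 15.9 and 23.5 CPM in CGR8. Bhlhe40, a repressor that competes with the clock activators, rose in NIH/3T3 from 20, 18 and 19.1 to 35.8, 33.5 and 36.9 CPM. It fell in CGR8 from 3.15, 3.64 and 4.09 to 1.87, 1.52 and 1.87 CPM, a difference of -1.93. Hlf, a PAR-bZIP output factor, also rose in NIH/3T3 (0.74) and fell in CGR8 (-0.72). Nr1d1, Bhlhe40 and Hlf had 0 h and 5 h groups that did not overlap in either line, and those of Nr1d2 overlapped in CGR8 through library C. The clock activator Arntl and the repressor Cry1 rose in NIH/3T3 by 1.02 and 1.096. In CGR8 Cry1 rose by only 0.22 and Arntl was not called (0.18). Nfil3 and Dbp, which bind the same output sites as a repressor and an activator, rose in NIH/3T3 by 1.22 and 0.90 and were not called in CGR8. Per1 fell by 0.64 in CGR8 with a NIH/3T3 value of 0.41 that was not called. Ciart and Tef fell in both lines, further in CGR8. The 3 members without a call for the difference were Clock (-0.73), Per3 (-0.70) and Cry2 (-0.18). The list had 11 negative calls with library totals, with GC and length trends removed and without CGR8 5 h library A, and 7 without libraries A and B.

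Some clock genes carry the E-box CACGTG, the letters bound by CLOCK and ARNTL, in the 250 bases before their start, and 2 members that moved differently are printed to show it. The sequences are RefSeq's on GRCm38.p6, 5′ to 3′ on the gene's strand, with the motif in capitals. Cry1 (chr10:85185055-85185304, minus strand) rose in both lines, and Ciart (chr3:95882229-95882478, minus strand) fell in both.
Cry1: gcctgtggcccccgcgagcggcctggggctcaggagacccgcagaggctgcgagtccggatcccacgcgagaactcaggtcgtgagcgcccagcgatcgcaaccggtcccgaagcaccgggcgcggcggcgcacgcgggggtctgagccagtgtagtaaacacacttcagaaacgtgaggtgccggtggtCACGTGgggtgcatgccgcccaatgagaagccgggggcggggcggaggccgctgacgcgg
Ciart: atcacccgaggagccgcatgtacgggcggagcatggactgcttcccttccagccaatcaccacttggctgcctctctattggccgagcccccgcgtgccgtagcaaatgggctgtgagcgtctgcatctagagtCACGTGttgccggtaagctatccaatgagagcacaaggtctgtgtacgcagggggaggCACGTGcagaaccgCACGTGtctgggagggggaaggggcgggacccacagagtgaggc
The Cry1 stretch holds 1 match, 60 bases before the start, and that of Ciart holds 3, at 116, 58 and 44 bases. CACGTG is its own reverse complement, so both strands read alike. Of the 11 called members 10 are in the promoter table, and 4 of these hold the letters (Ciart, Cry1, Per1 and Tef), against 6.02% of all 32851 promoters of that length. A match is a description of the letters only.

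**Figure D3:**
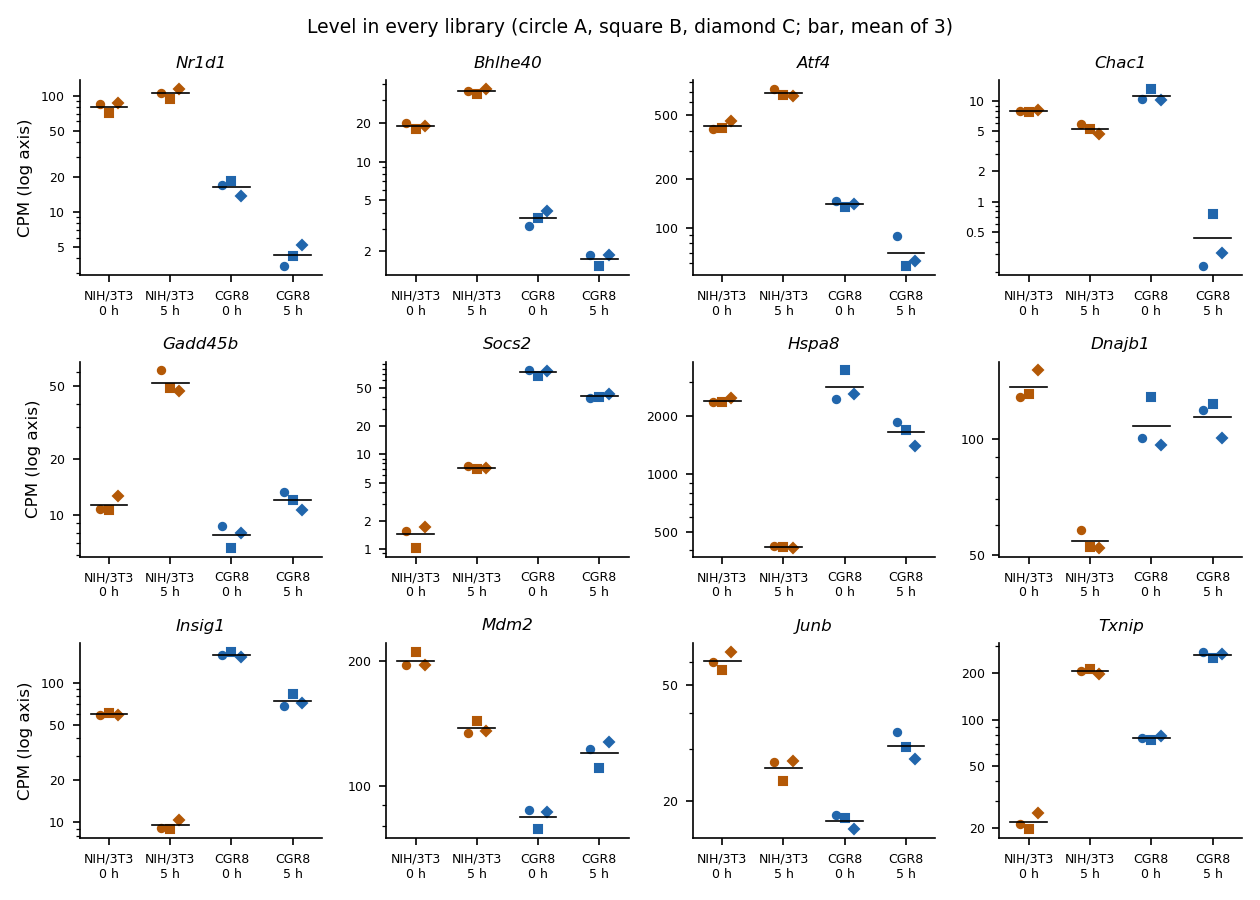
CPM (log axes) of 12 genes in each of the 12 libraries, NIH/3T3 in orange and CGR8 in blue, with a bar at each group mean. Nr1d1, Bhlhe40, Atf4 and Socs2 go up in NIH/3T3 and down in CGR8, while Hspa8 and Insig1 go down in both lines and further in NIH/3T3.

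Targets of ATF4, the activator of amino acid supply that is made when translation initiation is restrained, split in both directions. Of 37 members expressed in both lines 10 were called negative and 5 positive, where 7.54% and 11.7% of all genes expressed in both lines were, and the median difference was -0.09; 25 members fell in CGR8 and 23 in NIH/3T3, against 30.8% and 30.5% of those genes. Atf4 itself (ENSMUSG00000042406.9) rose in NIH/3T3 from 413, 419 and 459 to 729, 672 and 654 CPM. In CGR8 it fell from 147, 135 and 141 to 88.7, 57.5 and 62.1 CPM. The groups did not overlap in either line, and the difference was -1.69 (SE 0.18, edgeR BH-adjusted p 2.34e-07). Its mRNA level says nothing of ATF4 protein, which was not measured.

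Chac1 (ENSMUSG00000027313.4), a glutathione-degrading enzyme, had the largest difference of the list. It went from 10.5, 13.2 and 10.2 to 0.228, 0.761 and 0.312 CPM in CGR8, where the 5 h libraries held 5 to 15 counts, and from 7.92, 7.76 and 8.18 to 5.91, 5.33 and 4.75 CPM in NIH/3T3. Chac1 fell in CGR8 by 4.74 and was not called in NIH/3T3 (-0.58), which gave a difference of -4.16 (SE 0.42, edgeR BH-adjusted p 9.21e-08). Slc6a9, a glycine transporter, nearly vanished from CGR8, from 3.62, 2.6 and 3.56 to 0.0455, 0.152 and 0.117 CPM (1 to 3 counts), and fell in NIH/3T3 from 18.4, 16.5 and 16.7 to 7.47, 7.43 and 8.82 CPM. Atf3, a stress-induced repressor, rose in NIH/3T3 from 2.91, 3.04 and 3.81 to 8.38, 7.38 and 8.32 CPM and fell in CGR8 from 1.54, 1.44 and 1.64 to 0.364, 0.507 and 0.39 CPM. Stc2, a secreted glycoprotein, rose by 0.38 in NIH/3T3 and fell by 2.70 in CGR8. The transporters Slc1a4, Slc7a1 and Slc1a5, which carry neutral or cationic amino acids, fell in both lines and further in CGR8, with differences of -2.03, -1.34 and -0.64. Ddit3, the pro-apoptotic factor CHOP, fell in CGR8 (-0.90) and had a value of 0.16 in NIH/3T3 that was not called.

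A smaller set of the list went the other way. Slc7a11, the cystine transporter, fell in NIH/3T3 from 26.9, 34 and 25.9 to 12.4, 12.3 and 11.6 CPM. In CGR8 it stood at 8.95, 11.6 and 7.41 and then 10.4, 13.6 and 8.59 CPM, with overlapping groups, and the difference was 1.47 (SE 0.26, edgeR BH-adjusted p 0.000272). Cth, which makes cysteine, fell by 0.61 in NIH/3T3 and rose by 0.53 in CGR8. Ddit4, an mTORC1 inhibitor, and Ppp1r15a, a subunit of the phosphatase that restores initiation, had differences of 0.72 and 0.69, and the folate enzyme Aldh1l2 one of 0.68. Members such as Mthfd2 (-1.36 in CGR8 and -1.35 in NIH/3T3), Sesn2 (-1.27 and -1.41) and Slc38a2 (-1.05 and -0.996) fell in both lines with no called difference. Among 20 amino acid transporters, 8 of which are also in the ATF4 list, 6 were called negative and 4 positive. Without CGR8 5 h library A or library B these counts were 8 and 2. The median difference of the 20 was -0.35, and -0.15 with GC and length trends removed. Of all genes expressed in both lines 7.54% were called negative and 11.7% positive. Slc38a7 (-1.22) and the taurine carrier Slc6a6 (-1.103) were on the negative side, and the leucine carrier Slc43a1 (1.23) was on the positive side. With library totals the ATF4 list had 15 negative and 3 positive calls, and with GC and length trends removed 15 negative and 5 positive; without CGR8 5 h library A or B the positive calls were 3 and 2. The median was 0.03 with limma voom quality weights and negative under the other 11 settings run for lists.

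The letters TGATGNAA, the composite element bound by ATF4 with a C/EBP partner, occur before the start of Chac1 and of Slc7a11, which are printed because their differences had opposite signs. Both are RefSeq stretches of 250 bases on GRCm38.p6, on the gene's strand, with matches on either strand in capitals. Chac1 lies at chr2:119350992-119351241 on the plus strand and Slc7a11 at chr3:50443614-50443863 on the minus strand.
Chac1: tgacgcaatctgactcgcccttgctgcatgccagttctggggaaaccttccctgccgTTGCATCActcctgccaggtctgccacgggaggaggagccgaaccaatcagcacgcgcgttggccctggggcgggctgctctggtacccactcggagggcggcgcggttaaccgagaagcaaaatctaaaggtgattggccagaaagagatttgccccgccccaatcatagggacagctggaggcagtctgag
Slc7a11: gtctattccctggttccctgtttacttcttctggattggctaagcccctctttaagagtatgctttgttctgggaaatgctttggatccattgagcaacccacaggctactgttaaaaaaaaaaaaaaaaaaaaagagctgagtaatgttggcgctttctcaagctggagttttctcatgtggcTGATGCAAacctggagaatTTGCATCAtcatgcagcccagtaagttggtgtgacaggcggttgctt
The match of Chac1 starts 193 bases before the start site and those of Slc7a11 start 66 and 47 bases before it. Of 15 called members 12 are in the promoter table, and 4 hold the letters (Atf3, Chac1, Slc7a11 and Jdp2), against 3.45% of all promoters of that length. Members with and without a match are found on both sides of the difference.

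Immediate-early genes, which answer growth factors without new protein, differed widely among themselves. Of 33 expressed in both lines 13 were called negative and 7 positive, where 7.54% and 11.7% of all genes expressed in both lines were, with a median difference of -0.21. Without CGR8 5 h library B 4 were positive and the median was -0.44, without library C the median was -0.06, and with limma voom quality weights it was 0.05. Egr1, a zinc-finger factor, fell in both lines. It went from 126, 109 and 121 to 6.24, 5.08 and 6.26 CPM in NIH/3T3. In CGR8 it went from 1.103, 0.999 and 1.19 to 0.592, 0.355 and 0.351 CPM. The difference was 3.01 (SE 0.47), and Egr1 counts as expressed in CGR8 through its 0 h mean alone. Junb (ENSMUSG00000052837.8), an AP-1 subunit, moved in opposite directions, from 60.0, 56.1 and 65 down to 27.1, 23.5 and 27.4 CPM in NIH/3T3 and from 17.8, 17.5 and 15.9 up to 34.5, 30.5 and 27.8 CPM in CGR8. Its groups did not overlap in either line, and the difference was 2.07 (SE 0.21, edgeR BH-adjusted p 1.43e-07). Ier2, Zfp36, Btg2, Nr4a1 and Dusp4 were the other positive members, between 0.59 and 0.88.

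On the negative side, Gadd45b, a stress-response adaptor, rose in both lines but from 10.7, 10.6 and 12.6 to 61.1, 49.2 and 47 CPM in NIH/3T3 and only from 8.63, 6.59 and 7.94 to 13.2, 12 and 10.7 CPM in CGR8. Klf10 likewise rose in both and less in CGR8 (-0.52). Rhob, a small GTPase with a short-lived mRNA, rose in NIH/3T3 by 0.45 and fell in CGR8 by 1.26, and Klf6 rose by 0.68 and fell by 0.54. Myc fell in CGR8 from 61.5, 63.8 and 62.8 to 38.1, 41.1 and 38.8 CPM and was not called in NIH/3T3, where it went from 268, 245 and 291 to 314, 284 and 284 CPM. Dusp1, a phosphatase that shuts off MAP kinases, also fell in CGR8 (-0.99) without a call in NIH/3T3 (0.28). Nfkbia, the inhibitor of NF-κB, rose by 0.58 in NIH/3T3 and had a value of -0.16 in CGR8.

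Feedback inhibitors and targets of ERK signalling, a pathway that the 2i medium of CGR8 restrains, were called on both sides: of 17 expressed in both lines 6 were positive and 4 negative, against 11.7% and 7.54% of all genes expressed in both lines. Spry2 and Spry4, which dampen receptor tyrosine kinase signals, fell in NIH/3T3 by 1.07 and 1.60, and in CGR8 Spry4 fell by 0.71 while Spry2 was not called (-0.14). Etv5, an ETS factor downstream of ERK, fell in both lines, from 31, 27.3 and 28.9 to 8.63, 8.14 and 8.78 CPM in NIH/3T3 and from 491, 499 and 492 to 288, 344 and 333 CPM in CGR8. Etv1, of the same subfamily, fell in NIH/3T3 (-1.21) and rose in CGR8 (0.53), with a difference of 1.74. The phosphatase Dusp14 had the reverse pattern, 0.61 in NIH/3T3 and -0.60 in CGR8. Without CGR8 5 h library A the calls of this list numbered 5 positive and 4 negative, and without library B 4 and 4.

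Targets of YAP and TEAD, the factors that read cell contact and tension, leaned to one side. Of 17 expressed in both lines 9 were called, each of them negative, with a median of -0.71. Over all genes expressed in both lines 7.54% were called negative. Nuak2, a kinase, rose in NIH/3T3 from 8.57, 9.04 and 9.87 to 28.9, 24.8 and 28.3 CPM and was not called in CGR8, where it went from 5.74, 5.23 and 5.12 to 4.37, 3.55 and 4.18 CPM; its difference was -1.98 (SE 0.24, edgeR BH-adjusted p 1.98e-06). The YAP inhibitor Amotl2 rose from 141, 142 and 145 to 316, 295 and 339 CPM in NIH/3T3 and fell from 93.1, 92.3 and 90.3 to 65.6, 80.5 and 69.8 CPM in CGR8. The matricellular genes Ccn2 and Ccn1 rose in NIH/3T3 by 0.95 and 0.45, and Ajuba, a LIM scaffold, rose by 1.15 there with a CGR8 value of -0.06. Yap1 itself had a difference of 0.06 and was not called. This list holds long transcripts, with a median of 5191 bases, and its median difference was -0.32 with 8 negative calls once GC and length trends were removed. Without CGR8 5 h libraries A and B 6 were called, with a median of -0.66.

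Among inhibitors and targets of TGF-β and BMP, 4 of 18 were called negative and 2 positive. Over all genes expressed in both lines 7.54% were called negative and 11.7% positive, and the positive share lies near the latter. Without CGR8 5 h library A or B 6 were negative and 1 positive. The median difference of the 18 was -0.27, and -0.10 with GC and length trends removed. Id1 and Id3, the immediate BMP targets, fell in NIH/3T3 by 1.11 and 0.75 and were not called in CGR8 (-0.35 and 0.24), so their differences were positive. Of 9 Notch genes 5 were called negative and 1 positive, where 7.54% and 11.7% of all genes expressed in both lines were. Jag1, a ligand, rose in NIH/3T3 (0.47) and fell in CGR8 (-0.70), the receptors Notch2 and Notch4 fell in CGR8 by 1.18 and 1.78, and the target Hes1 fell by 0.75 there without a call in NIH/3T3 (0.15). Without CGR8 5 h libraries A and B 2 of the Notch calls and 2 negative TGF-β and BMP calls were left.

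Socs2 (ENSMUSG00000020027.19) encodes an inhibitor of cytokine signals through STAT proteins. It rose in NIH/3T3 from 1.55, 1.03 and 1.72 to 7.56, 6.92 and 7.13 CPM and fell in CGR8, where LIF is supplied, from 76.5, 66.4 and 75.5 to 38.7, 40.6 and 43.5 CPM, a difference of -3.14 (SE 0.19, edgeR BH-adjusted p 2.31e-11). Cebpd, another STAT3 target, rose in both lines and more in CGR8 (2.17 against 0.61), from at most 0.655 CPM in CGR8 at 0 h. Socs3 was not called for the difference (0.18). Of the 17 genes of the LIF and STAT3 list expressed in both lines, 3 were called positive and 2 negative, not far from the 11.7% and 7.54% of all genes expressed in both lines, and 5 and 3 without CGR8 5 h library C.

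Heat shock genes have products that fold proteins, and their transcription by HSF1 tracks the load of unfolded protein. Of 20 expressed in both lines 10 were called positive, 1 negative and 9 not, with a median of 0.59. In NIH/3T3 15 of the 20 fell, and in CGR8 8 fell and 4 rose. Over all genes expressed in both lines 11.7% were called positive and 7.54% negative. Of those genes 30.5% fell in NIH/3T3, and in CGR8 30.8% fell and 31.8% rose. Hspa8 (ENSMUSG00000015656.18), the constitutive HSC70, went from 2375, 2354 and 2491 to 421, 419 and 412 CPM in NIH/3T3. In CGR8 it went from 2439, 3453 and 2609 to 1864, 1696 and 1400 CPM, a smaller fall, and the difference was 1.75 (SE 0.25, edgeR BH-adjusted p 2.35e-05). Counts of Hspa8 are uncertain, because Gm15459, a processed pseudogene with a nearly identical transcript, moved like it (-2.47 in NIH/3T3 and -0.95 in CGR8). The co-chaperone Dnajb1 fell in NIH/3T3 from 129, 131 and 151 to 58, 52.6 and 52.2 CPM and was not called in CGR8, where its groups overlapped at 101, 128 and 96.4 and 119, 123 and 101 CPM.

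Dnaja1 and Bag3, partners of HSP70, had differences of 0.80 and 0.94. Hsp90ab1 fell in NIH/3T3 from 4569, 4257 and 4701 to 3574, 3395 and 3378 CPM and was not called in CGR8 (0.20), and its co-chaperones Ahsa1, Stip1 and Fkbp4 differed by 0.81, 0.61 and 0.66. The stress-inducible Hspa1b fell in both lines (-2.48 in NIH/3T3 and -1.62 in CGR8) with a difference of 0.85 that was not called. The mitochondrial Hspd1 also fell in both with no called difference (0.14). Hspa4l was the 1 negative call (-0.65). Calls of this list numbered 6 positive and 1 negative without CGR8 5 h library A, the same without library B, and 4 positive without both, when the median was 0.38.

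**Figure D4:**
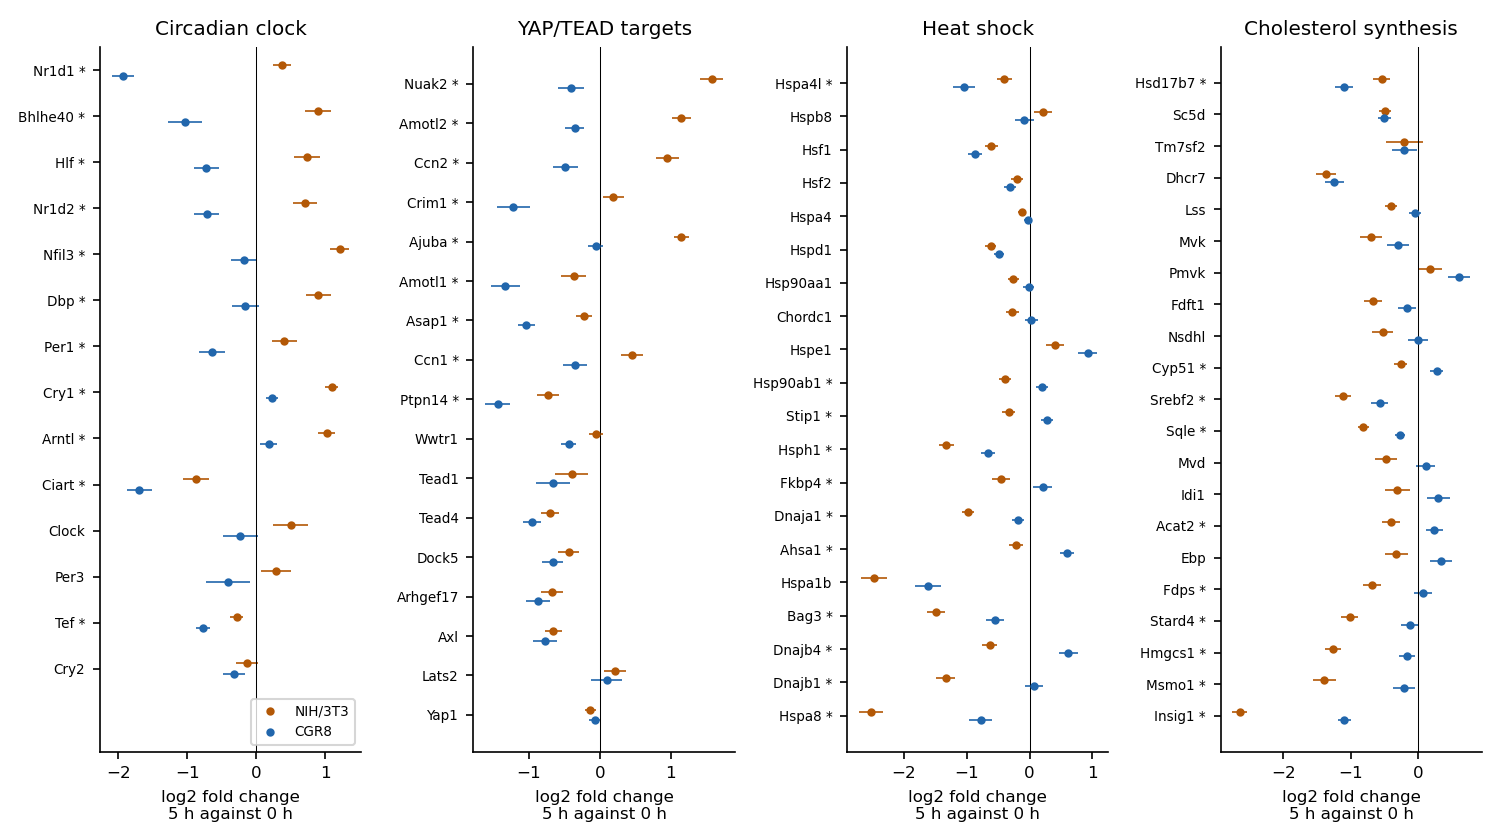
Log2 fold change at 5 h against 0 h (horizontal axis) in NIH/3T3 (orange) and CGR8 (blue), with bars of 1 standard error, for the members of 4 lists that were expressed in both lines and are reported here; a star marks a called difference. Clock genes lie right of 0 in NIH/3T3 and left of it in CGR8 for Nr1d1, Bhlhe40, Hlf and Nr1d2, while heat shock and cholesterol genes lie further left in NIH/3T3.

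Genes of cholesterol supply are driven by SREBP2 when sterols are scarce. Of 24 expressed in both lines 20 fell in NIH/3T3 and 9 in CGR8. For the difference 11 were called positive, 1 negative and 12 not, and the median was 0.55. Over all genes expressed in both lines 30.5% fell in NIH/3T3 and 30.8% in CGR8, and 11.7% were called positive and 7.54% negative. Insig1 (ENSMUSG00000045294.12), which holds the SREBP precursor in the endoplasmic reticulum, went from 58.7, 60.6 and 58.7 to 9.17, 8.89 and 10.4 CPM in NIH/3T3. In CGR8 it went from 158, 167 and 153 to 68.1, 83.2 and 71.7 CPM. It fell in both lines with no overlap, and the difference was 1.55 (SE 0.14, edgeR BH-adjusted p 2.03e-08).

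The synthase Hmgcs1 and the methyl sterol oxidase Msmo1 fell in NIH/3T3 by 1.26 and 1.39 and were not called in CGR8 (-0.17 and -0.22). Srebf2, the gene of the regulator itself, fell in both lines, with a difference of 0.54. Hsd17b7 was the 1 negative member (-0.56). Positive calls numbered 16 with GC and length trends removed, 16 without CGR8 5 h library C, and 7, 6 and 7 without CGR8 5 h library A, library B or both.

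Targets of p53 and antioxidant targets of NRF2, both short-lived regulators, were called mostly on the positive side. Of 21 p53 targets expressed in both lines 10 were called positive and 1 negative, with a median of 0.55. In NIH/3T3 14 fell and in CGR8 5 fell. The shares over all genes expressed in both lines were 11.7% and 7.54% for the calls and 30.5% and 30.8% for the falls. Mdm2, the ubiquitin ligase that removes p53, fell in NIH/3T3 from 195, 209.9 and 195 to 134, 143 and 135 CPM and rose in CGR8 from 87.2, 78.4 and 86.4 to 122, 110.3 and 127 CPM, a difference of 1.05 (SE 0.11, edgeR BH-adjusted p 3.59e-07). Cdkn1a, the inhibitor p21, fell in NIH/3T3 from 206, 186 and 214 to 104, 106 and 106 CPM and was not called in CGR8, with overlapping groups at 61.4, 72.5 and 57.8 and 71.5, 65.9 and 58.3 CPM. Ckap2, a microtubule protein, fell in NIH/3T3 (-0.92) and rose in CGR8 (0.24). Plk2 went the other way, up by 0.89 in NIH/3T3 with -0.01 in CGR8.

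Of 20 NRF2 and antioxidant genes 9 were called positive and 1 negative, with a median of 0.46. Over all genes expressed in both lines 11.7% were called positive and 7.54% negative. Hmox1, heme oxygenase, fell from 76.9, 68.7 and 80.0 to 16.4, 18.1 and 16.8 CPM in NIH/3T3 and from 108, 116 and 112 to 51.5, 52.5 and 47.2 CPM in CGR8. Gsr, glutathione reductase, and Txnrd1, thioredoxin reductase, also fell in both, with differences of 0.97 and 0.61. Gsta4, a glutathione transferase, rose in CGR8 from 299, 366 and 313 to 795, 672 and 535 CPM and was not called in NIH/3T3 (-0.16). Srxn1 was the 1 negative call (-0.72). Without CGR8 5 h library A or B the positive calls of this list numbered 5 in each case, and those of the p53 list 7 and 6.

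S phase genes serve DNA replication. Of 38 S phase genes, all expressed in both lines, 24 were called, each of them positive, with a median of 0.53. In CGR8 26 rose and in NIH/3T3 7 rose. Over all genes expressed in both lines 11.7% were called positive, 31.8% rose in CGR8 and 21.2% rose in NIH/3T3. The clamp Pcna had a CGR8 change of 0.80 and a NIH/3T3 change of 0.03, and the licensing factor Cdc6 rose in CGR8 (0.57) and fell in NIH/3T3 (-0.60). E2f1, the transcription factor of the list, fell in NIH/3T3 from 84.5, 80.0 and 86 to 38.8, 33.9 and 37.7 CPM and was not called in CGR8 (-0.18). Of 32 genes of G2 and mitosis 14 were called, each of them positive, and 19 fell in NIH/3T3 and 11 in CGR8. Of all genes expressed in both lines 30.5% fell in NIH/3T3 and 30.8% in CGR8. The kinase Plk1 fell in both lines (-1.20 and -0.51). Mki67, a proliferation marker, fell in both, with a difference of 0.005. The S phase calls numbered 15 with library totals, 8 without CGR8 5 h library A, 12 without B and 7 without both, and the mitosis calls 7, 2, 4 and 6.

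Ribosomes and the respiratory chain, the makers of protein and of ATP, gave 3 further lists with positive medians, and these moved with the libraries that stood apart. The 78 cytosolic ribosomal protein genes had a median difference of 0.58, against 0.10 over all genes expressed in both lines, and 11 were called. Of the 78, 72 rose in CGR8 and 23 in NIH/3T3, where 31.8% and 21.2% of all genes expressed in both lines rose. The median transcript of the 78 was 1076 bases. Of 62 respiratory chain subunits, with a median of 1026 bases, 19 were called positive (median 0.55), and of 50 mitochondrial ribosome genes 6 were (median 0.42). The ribosomal counts lie near the 11.7% of all genes expressed in both lines that were called positive. Without CGR8 5 h library A and again without A and B, no list had more than 1 positive call. Without library C the positive calls were 53, 41 and 18, and with limma voom quality weights they were 76, 57 and 37. Without both A and B, the medians were 0.19, 0.19 and 0.11. With GC and length trends removed the medians were 0.34, 0.29 and 0.25. The ribosomal gene Rpl30 stood at 265, 229 and 164 CPM in CGR8 libraries A, B and C at 5 h, so that library C lay below A and B and below the highest 0 h library (120.3, 170.4 and 115 CPM). Of 32 proteasome genes, whose products degrade proteins, 25 rose in CGR8 and 12 in NIH/3T3, where 31.8% and 21.2% of all genes expressed in both lines rose. For the difference edgeR's test called 0 of them and DESeq2 called 1 negative. With limma voom quality weights 28 were called positive, and by edgeR's test without library C 14 were. Their median difference of 0.40 was 0.12 without library A.

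**Figure D5:**
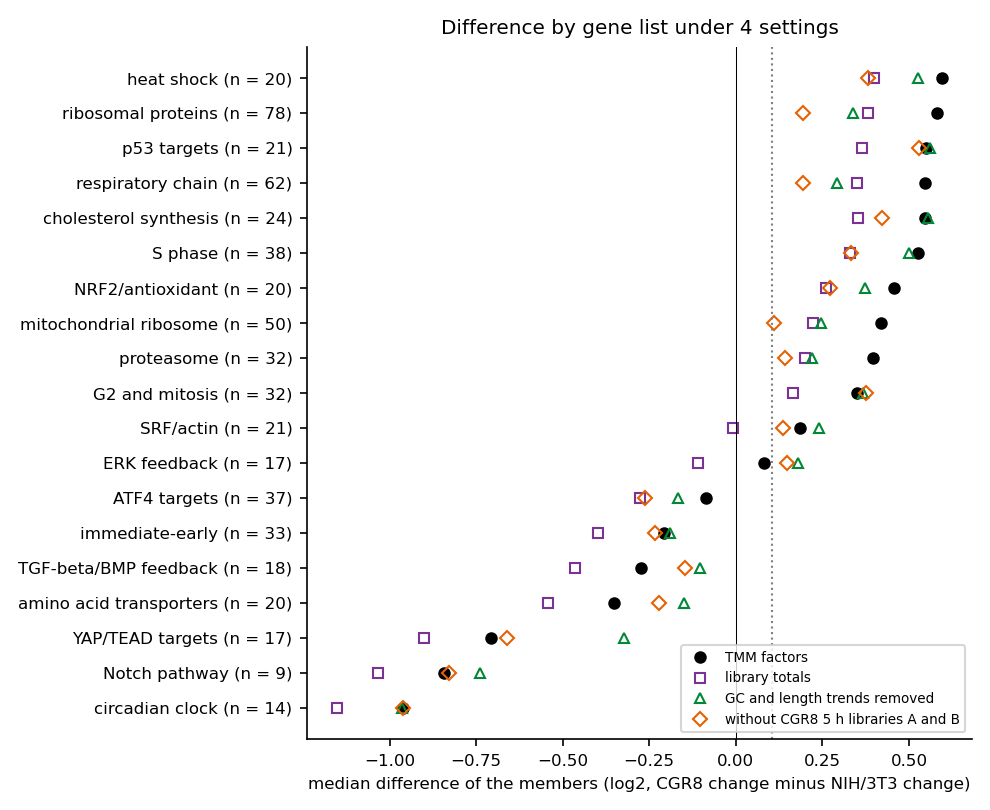
Median difference (CGR8 change minus NIH/3T3 change, log2) over the members of 19 lists expressed in both lines, under 4 settings. The dotted line marks the median of all genes expressed in both lines, 0.10. Clock, Notch and YAP/TEAD medians stay negative, and the ribosomal protein and respiratory chain medians lie nearest to 0 without CGR8 5 h libraries A and B.

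Txnip, an arrestin that limits glucose uptake, rose in both lines, from 21, 19.5 and 25 to 207, 213 and 199.5 CPM in NIH/3T3 and from 76.4, 73.8 and 78.2 to 276, 252 and 267 CPM in CGR8. The libraries of the lines converged at 5 h, and the difference was -1.44 (SE 0.21); its relative Arrdc4 followed with 1.94 and 1.24. Serpinb9b, an intracellular protease inhibitor, rose in NIH/3T3 from 63.5, 67.5 and 67.1 to 125, 122 and 116 CPM and fell in CGR8 from 11.9, 13 and 12.1 to 3.28, 3.65 and 2.89 CPM. Herpud1, which serves the removal of misfolded proteins from the endoplasmic reticulum, fell in both lines and further in CGR8 (-2.03 against -0.45). Il6ra, the interleukin 6 receptor, fell in CGR8 from 18, 15.4 and 16.8 to 2.91, 4.06 and 4.14 CPM and stayed between 23.8 and 26.8 CPM in NIH/3T3.

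Magi3, a scaffold of cell junctions, Jade1, a histone acetyltransferase subunit, and Emp1, a membrane protein, rose in NIH/3T3 (0.71, 0.96 and 0.83) and fell in CGR8 (-0.94, -0.71 and -0.74). Lef1, a Wnt-pathway factor, did the same (1.18 and -0.63). The intermediate filament gene Nes did the opposite, from 30.6, 28.9 and 31.5 to 15.6, 16.1 and 18.1 CPM in NIH/3T3 and from 11.7, 11.4 and 13.1 to 15.8, 21.4 and 18.9 CPM in CGR8. Steap3, an iron reductase, fell in NIH/3T3 (-0.79) and rose in CGR8 (1.15), while Pdpn and Lpl rose in CGR8 (1.54 and 1.27) without a call in NIH/3T3. Myl9, a myosin light chain, was near absent from CGR8 at 0 h (1 to 4 counts) and reached 1.59, 0.609 and 0.937 CPM at 5 h. It counts as expressed in CGR8 through its 5 h mean alone. Neat1, a nuclear RNA, varied between CGR8 replicates (14.7, 2.76 and 14 CPM at 0 h), and its difference of -2.41 (SE 0.68) lost its call without CGR8 0 h library A or C or both 5 h libraries A and B. Of the genes named by rule, 35 overlap another annotated gene, among them Junb, Hspa8, Nr1d1, Atf3, Slc6a9, Slc7a11, Txnip and Serpinb9b, and their counts are uncertain if strand was ignored in counting.

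A difference for genes expressed in only one line sets a change in one line against a few counts in the other. Called were 123 of 2627 genes expressed in CGR8 only (4.68%) and 114 of 1352 in NIH/3T3 only (8.43%). Within the expressing line, 808 CGR8-only genes rose (30.8%) and 622 fell (23.7%), and 302 NIH/3T3-only genes rose (22.3%) and 322 fell (23.8%).

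In CGR8, Gli1, the Hedgehog effector, fell from 18.1, 13.1 and 18.6 to 4.64, 3.5 and 4.8 CPM, and its NIH/3T3 libraries held 12 to 22 counts throughout. The difference was -1.998 (SE 0.32, edgeR BH-adjusted p 9.64e-05). Slc12a8, a cation-chloride cotransporter family member, and Susd2, a surface protein, fell by 1.52 and 1.19, and Dsp, the desmosomal protein desmoplakin, fell by 1.21. Rises were found for Hal, histidine ammonia-lyase, from 4.22, 5.95 and 4.09 to 15.3, 18.7 and 15.5 CPM, for Folr1, a folate receptor, from 19.9, 25.6 and 18.5 to 64.2, 52.4 and 43.2 CPM, and for Ccdc181 and Plekha4 (1.33 and 1.13). For Hal, Folr1, Dsp and Susd2, whose NIH/3T3 libraries held at most 17 counts, the difference lost its call under 10 to 14 of the alternatives, while the CGR8 libraries of these 4 genes held at least 95 counts.

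Most of the pluripotency network fell in this class. Of 19 naive pluripotency genes expressed in CGR8 only, 7 rose and 9 fell at 5 h. Of all genes expressed in CGR8 only 30.8% rose, a share near that of the 19, and 23.7% fell. The NIH/3T3 libraries of the 19 were at or near 0, so a difference between the lines cannot be read. Nanog, Pou5f1 and Zfp42, core factors of the network, rose by 0.67, 0.80 and 0.65, and Tdgf1, a Nodal co-receptor, rose by 1.16. Pou5f1 stood at 595, 663 and 562 CPM at 0 h and 1330, 1028 and 812 CPM at 5 h. The summed level of the 8 markers was 6300 to 6840 CPM at 5 h. Tfcp2l1 and Esrrb, factors tied to LIF and 2i culture, fell by 1.20 and 0.94. Esrrb went from 858, 878 and 858 to 418, 480.4 and 449 CPM, with no overlap. Of 10 pluripotency genes also expressed in NIH/3T3, Dppa4 was the 1 call (0.49, edgeR BH-adjusted p 0.0385), and it was lost under 17 of 23 alternatives. With RLE factors, library totals, GC and length trends removed, DESeq2, or without CGR8 5 h library A or B, this list had 2 negative calls and no positive one. Klf4 fell in both lines (-0.59 and -0.34).

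Markers of other cell types were present at various levels in CGR8. The formative epiblast list summed to 343 to 352 CPM at 0 h and 250 to 298 CPM at 5 h, mostly Dnmt3b. Dnmt3b itself went from 246 to 254 CPM down to 149 to 187 CPM. Its list members Otx2 and Sox3 rose, Otx2 from 6.73 to 7.56 CPM up to 14.4 to 16.0 CPM. Sox3 went from 4.55 to 5.72 CPM up to 6.56 to 7.58 CPM. The endothelial list summed to 93.2 to 101 CPM and then 79.5 to 92.3 CPM, mostly Pecam1, with Emcn at 0. The trophoblast list went from 98.8 to 106 CPM in CGR8 at 0 h to 68.9 to 78.6 CPM at 5 h, where Eomes went from 20.9 to 23.9 CPM to 3.77 to 4.85 CPM and Tfap2c stayed at 46.2 to 57.3 CPM. The primitive endoderm list went from 61.2 to 74.0 CPM to 20.8 to 26.7 CPM, mostly through the laminin gene Lama1, with Gata6 and Sox17 at or below 0.430 CPM. In bulk RNA, fewer cells of a type and less RNA per cell cannot be told apart. The adipocyte and macrophage lists rested on Lpl and Cd68 in CGR8, with Fabp4, Plin1, Adgre1 and Tyrobp at 0 in all of its libraries.

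In NIH/3T3, Tnc, which encodes the matrix protein tenascin C, rose from 124, 117 and 121 to 374, 404 and 445 CPM, and Il1rl1, the interleukin 33 receptor, rose from 577, 609.9 and 539 to 1843, 1910 and 1841 CPM. Both held at most 5 counts in any CGR8 library, and their differences lost the call under 2 and 7 of 23 alternatives. Rgs2, an inhibitor of G protein signalling, rose by 1.62, with a difference of -2.16 (SE 0.43, edgeR BH-adjusted p 0.000901), and Sphk1, a sphingosine kinase, rose by 1.85. Fosl1, the AP-1 subunit FRA1, fell from 40.9, 42 and 51.2 to 15.4, 13.6 and 14.7 CPM. Thsd7a, Cela1 and Orai2 fell by 1.16, 1.11 and 0.85; Orai2 also fell in CGR8, where its 5 h libraries held 2 to 8 counts. Of 16 matrix genes expressed in NIH/3T3 only, 2 rose and 9 fell, where 22.3% and 23.8% of all genes of that class did. Thbs1, thrombospondin, rose from 161, 149 and 145 to 332, 316 and 372 CPM, whereas the collagens Col1a1, Col1a2, Col3a1, Col6a1 and Col6a2 fell by 0.82, 0.59, 0.92, 0.78 and 0.75. Fn1, expressed in both lines, fell in CGR8 (-0.53) and had a value of 0.41 in NIH/3T3 that was not called, and Timp3, a protease inhibitor at 710.4, 700.2 and 650.1 CPM in NIH/3T3 at 0 h, rose there to 1369, 1311 and 1377 CPM.

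The same genes at the other times share the 0 h libraries with the 5 h comparison, so their values are set side by side only. For Nr1d1 the difference was -2.85 at 2 h, -2.31 at 5 h and 0.20 at 48 h, and for Atf3 it was -3.39, -3.16 and -0.80. Insig1 stood at -0.02 at 2 h and 1.74 at 48 h, where both lines were again low. Junb had a NIH/3T3 change of 3.27 and a CGR8 change of -0.27 at 2 h, before the opposite signs of 5 h. Socs2 went from -1.62 at 2 h to -2.59 at 48 h, and Chac1 from -2.14 to -1.72.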

How the data were processed

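Gene counts of all 30 libraries were deposited by the authors as one table of whole-number counts for 57186 gene identifiers, with no normalization. Per the submitters' processing notes, STAR, DESeq2 and the build GRCm39 were used, without their roles, and per the labels' protocols the kit was a stranded mRNA ligation kit. The counting tool, its strand setting and the annotation release are not given in the sources used here. Symbols, transcript length and GC content came from GENCODE M21 (GRCm38), which matched 90.7% of identifiers, so no coordinates of the counted genes are printed. Promoter sequences are RefSeq's on GRCm38.p6.

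Counts were modelled with edgeR 4.0.16 in R 4.3.3 over 10 groups of line and time, with TMM factors and edgeR's filter on low counts (minimum count 10, total 15), which kept 17549 genes. The quasi-likelihood F test was applied to the CGR8 change minus the NIH/3T3 change, with Benjamini-Hochberg adjustment over all genes tested and a threshold of 0.05. A standard error is the log2 difference divided by the square root of F. The mean level that counts as expressed was 1 CPM in a line at 0 h or 5 h, with 5 CPM as an alternative. The procedure was run on simulated counts with known differences, drawn with the same spread per gene in every library. The simulation held no length trend and no library that stood apart, so it gives no error rate for these libraries. Replicate letters A, B and C recur in every group. Within a line, deviations of libraries from their group means were compared between 0 h and 5 h by correlation across genes. In CGR8 same letters gave -0.292 (A), 0.51 (B) and 0.649 (C), and other letters gave -0.735 to 0.612. In NIH/3T3 same letters gave -0.206 to 0.139 and other letters -0.216 to 0.263. These values do not settle whether the letters pair the libraries, and no block was used in the main fit.

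Alternatives were RLE factors, library totals, TMM factors within each line, no filter, a mean of at least 5 CPM, the 12 libraries alone, a replicate block, removal of GC and length trends from every library (natural splines with 4 degrees of freedom), leaving out each library, limma 3.58.1 voom with quality weights and DESeq2 1.42.0. Leaving out CGR8 5 h libraries A and B together was chosen after seeing the data. Genes were named by rule: among genes expressed in both lines and at 10 CPM or more in each, the 10 largest differences of each direction and 4 of each orientation with opposite changes, then 4 of each direction for each line-specific class, and the called member with the largest difference in each list. Other members of the 40 lists are named in the text as examples of their list, chosen after their values were seen. The members and lists were chosen with earlier results of these data known. Results on a few genes that the rule or the lists hold are not reported here, although they count in the totals.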

Additional observations from a re-analysis of the deposited data

Results flagged for a closer look

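The change from 0 h to 5 h of cycloheximide differed between the lines for 2329 genes, by the test of the difference itself. The named genes reported here are listed by their difference, CGR8 change minus NIH/3T3 change on the log2 scale. Among genes expressed in both lines, positive differences were found for Myl9 (4.15), Mir6236 (3.01), Dab2 (2.42), Junb (2.07), Steap3 (1.94), Hspa8 (1.75) and Etv1 (1.74). Smaller values of the same sign were those of Fam102a (1.64), Pdpn (1.63), Lgals9 (1.62), Insig1 (1.55), Pnrc1 (1.54), Nes (1.504) and Slc7a11 (1.47). Next came Lpl (1.34), Cd68 (1.30), Atp5o (1.24), Fen1 (1.23), Ckap2 (1.16), Pfkm (1.06) and Mrps21 (0.95). Then followed Bok (0.89), Rpl30 (0.87), Snhg8 (0.87), Dlgap5 (0.83), Nop10 (0.68), Aars (0.63) and Dppa4 (0.49). Negative differences in that class were found for Chac1 (-4.16), Slc6a9 (-3.79), Atf3 (-3.16), Socs2 (-3.14), Serpinb9b (-2.79), Neat1 (-2.41) and Nr1d1 (-2.31). They were smaller in size for Il6ra (-2.19), Ttyh2 (-2.10), Slc1a4 (-2.03), Dgkh (-1.99), Nuak2 (-1.98), Arhgap23 (-1.93) and Ptprj (-1.89). Still smaller were those of Lef1 (-1.81), Jade1 (-1.67), Magi3 (-1.65), Timp3 (-1.59), Herpud1 (-1.58), Emp1 (-1.58) and Txnip (-1.44). The last were those of Dusp1 (-1.27), Notch4 (-1.22) and Tfeb (-1.18). Among genes expressed in CGR8 only, values were found for Ccdc181 (2.88), Hal (2.55), Plekha4 (1.62), Folr1 (1.41), Susd2 (-2.88), Gli1 (-1.998), Dsp (-1.72) and Slc12a8 (-1.21). Among genes expressed in NIH/3T3 only, values were found for Fosl1 (2.51), Thsd7a (2.31), Cela1 (1.76), Il1rl1 (-3.43), Tnc (-3.26), Rgs2 (-2.16), Sphk1 (-1.99) and Orai2 (-1.34). Values of genes with few counts in a group, such as Myl9, Slc6a9, Tnc and Il1rl1, depend on the prior count of the fit. Myl9 and Dab2 count as expressed in CGR8 only through their 5 h means of 1.05 and 1.58 CPM (0.0889 and 0.487 CPM at 0 h). Chac1, Slc6a9, Atf3 and Timp3 do so only through their 0 h means. Their place among genes expressed in both lines therefore rests on the group where they were high.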

How the results depend on the processing

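The count of genes called for the difference, 2329 over all genes, ranged from 2055 to 3196 under the other scalings, filters, GC and length correction and DESeq2, and from 1601 to 3237 when 1 library was left out; it was 6373 with limma voom quality weights and 885 without CGR8 5 h libraries A and B, a setting with fewer samples. For genes expressed in both lines the count of 2045 became 5141 and 775 under the last pair, and 1405 to 2917 when 1 library was left out. The share of calls with a positive difference, 61.6%, was 45.9% with RLE factors, 31.5% with library totals, 49.7% with TMM within each line, 50.4% without a filter, 41.1% with a mean of at least 5 CPM, 46.9% with DESeq2, 60.7% with the 12 libraries alone, 64.0% with GC and length trends removed, 63.7% with voom and 55.4% without CGR8 5 h libraries A and B. Leaving out 1 library gave 28.5% (without CGR8 5 h A) to 63.1%, with 30.1% without CGR8 5 h B; the cause was not tested. The 5 h response itself was called for 8820 genes in CGR8, 7674 to 8791 when 1 library was left out and 5630 without CGR8 5 h A and B, and for 6536 in NIH/3T3, 5448 to 6769 when 1 library was left out. With a replicate block 2342 genes were called and 59.5% of calls were positive, although it is not settled whether the letters pair the libraries. Of the 69 named genes none reversed under the 23 alternatives, of which a mean of at least 5 CPM tested 61, and 23 lost their call under some, 16 without CGR8 5 h A, 8 without CGR8 5 h B and 21 without A and B. Among these, Rpl30, Snhg8, Nop10 and Bok lost it without A and without B, and Mrps21 and Atp5o without A but not without B alone. Aars lost it under 9 alternatives, with RLE factors and library totals among them. All named genes were picked by called differences in these same libraries, so their kept signs are no test of the scaling. Genes with few counts in one line limit the differences of the line-specific classes.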
